A study of Rattus norvegicus with 4 samples.

Results

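The genes described here are 39 rat genes that type I and type II interferons are known to induce or that carry the interferon signal: sensors of viral RNA and DNA, interferon transcription factors, the ISG15 system, oligoadenylate synthetases, antiviral GTPases, restriction factors and a few induced genes of other kinds. The members were named by gene symbol, and a probe was given to a member when its transcript accession belonged to that gene in RefSeq. Of the 39 members, 37 were measured, through 44 probes, among 16579 genes measured in all. No probe was matched to Gbp1 or Xaf1, so these have no value here. The list was not made by a threshold on the levels, but it was chosen with earlier results of these data known.

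The cells were NR8383, a rat macrophage line obtained by lung lavage, after 20 passages, so every array reports on a single line. Cells were seeded 48 h earlier and then exposed for 4 h to carboxylated carbon nanotubes (NRCWE042) at a dose of 6.8 cm2/cm2. The exposed group holds 4 biological replicates, each on a one-colour Agilent array that was hybridised with Cy3-labelled cRNA made from 100 ng of total RNA. Unexposed cells were not analysed here, so no value below is a response to the nanotubes, no test between conditions was made, and each result describes the exposed cells only.

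Interferons bind receptors whose JAK kinases activate transcription factors. Type I interferon acts through a complex that includes STAT2 and IRF9 and binds the interferon-stimulated response element (ISRE), and interferon gamma acts through the gamma-activated site (GAS). In alveolar macrophages these genes keep a low tonic activity and are strongly induced by respiratory viruses and by intracellular bacteria.

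A level is the log2 processed signal of a gene's brightest probe minus the log2 of the 75th percentile of all probes on that array, so 0 is the brightness of a probe at that percentile. Levels of different genes come from different probes and are not ranked against each other. Detection on an array means that the scanner software marked at least 1 probe of the gene as well above background there. The arrays differed in brightness, with a 75th percentile of processed signal of 128, 131, 98.5 and 49.0 on replicates 1 to 4, and the share of all genes detected was 52.3%, 50.5%, 49% and 45.2%. Of the macrophage markers, 8 of 9 measured were detected on all 4 arrays. Of the markers of other cells, 0 of 2 for B cells, 0 of 3 for neutrophils, 0 of 5 for lung epithelium and 0 of 4 for fibroblasts were, but 3 of 4 for plasmacytoid dendritic cells, 2 of 5 for T and NK cells and 3 of 4 for endothelium were. Their part in the interferon genes' levels was not tested. In RNA from whole cultures, fewer cells expressing a gene and less RNA per cell cannot be told apart.

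Most of the interferon-stimulated genes were detected in the exposed cells. Detection on all 4 arrays was found for 28 of the 37 measured members, which is 75.7%, against 44.4% of all measured genes. Since the members were chosen with earlier results of these data known, this difference was not tested. A further 3 members were detected on some arrays (9.43% of all genes were) and 6 on none (46.1% of all genes were). By array, 31, 29, 28 and 28 members were detected on replicates 1 to 4. Statements on which array was high or low for a member hold for the percentile scaling. With spike-in scaling, which keeps the arrays' difference in brightness, 28, 28, 7 and 0 of the 28 members were above their own mean on replicates 1 to 4. The median of all detected genes then stood at 0.31, 0.45, -0.03 and -0.71 relative to each gene's own mean, so these counts follow the whole array.

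The promoters of the members were read from RefSeq windows of 300 bases on the GRCr8 assembly, each running from 250 bases before the gene's start to 50 bases after it. A window was at hand for 31 of the 39 members. The ISRE core, GAAA, then NN (any bases), then GAAA, was searched on both strands, and its reverse complement reads TTTC, NN, TTTC. It was found in 21 of those 31 members, 67.7%, and in 3.92% of all 33469 windows. The GAS, TTCNNNGAA, which is its own reverse complement, was found in 11 of the 31, 35.5%, and in 8.87% of all windows. Of the 13 GAS matches, 1 overlapped an ISRE core, in Bst2.

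The ISRE windows below show the letters shared by members of different roles, with the core nearest to the gene's start, and any core overlapping it, in capitals and 8 bases on each side. Each is on the gene's own strand, 5′ to 3′, and the paired GAAA, or the paired TTTC on the other strand, is in all of them. The first 4 hold overlapping cores, so that the GAAA repeats 3 times.
Oas1a: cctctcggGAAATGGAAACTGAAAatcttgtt
Oas1b: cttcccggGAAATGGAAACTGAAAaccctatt
Bst2: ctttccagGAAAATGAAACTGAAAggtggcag
Socs1: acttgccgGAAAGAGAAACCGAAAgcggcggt
Isg20: atgaaccaGAAACTGAAActaaaacg
Irgm: aaggaataGAAACTGAAAccgactct
Ifit3: taagtctgTTTCAGTTTCtagtttcc
Ifi44: acactgagTTTCAGTTTCatttccca
Oasl2: agctttggTTTCAGTTTCcaggcttg
Oas3: agagaggaGAAAACGAAAgtgaatga
Gbp4: aagcagggTTTCGATTTCggttccct
Ifitm3: aaattcagGAAAAGGAAActtctgag

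On GRCr8 these windows lie just before the starts of their genes. The Oas1a window is chr12:41330417-41330448 on the + strand and that of Oas1b is chr12:41395888-41395919 on the - strand. The Bst2 window is chr16:18255075-18255106 on the - strand and that of Socs1 is chr10:5389459-5389490 on the + strand. Over the 21 members, the match nearest to the start began between 10 and 151 bases before it. The core that most members shared had CT between its GAAA repeats. On either strand it was in 9 members and in 0.308% of all windows, and it can be read in the Oas1a, Oas1b, Bst2, Isg20 and Irgm windows and, reversed, in those of Ifit3, Ifi44 and Oasl2.

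An ISRE match did not separate the detected members from the others. It was in 14 of the 23 members detected on all 4 arrays that had a window, and in 5 of the 6 other measured members that had one. Oas3, Gbp4 and Ifitm3, shown above with a core, were detected on no array. A match is a description of these letters and not evidence of binding, and no match says only that the letters are not in these 300 bases. Both motifs were found in Bst2, Ifitm3, Irgm, Oas1a, Oas1b and Socs1, and neither in Ifi35, Irf3, Mx1, Oasl and Stat2.

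A GAS match was in 8 of the 23 members detected on all 4 arrays that had a window. It was in 3 of the 6 other measured members that had one. GAS matches without an ISRE core were in Ifi47, Irf1, Irf8, Irf9 and Samhd1, and Irf8, with 2 matches, was detected on no array. Those of Irf1, Irf9 and Ifi47 are shown, the last because it differed most between the arrays. A link between GAS matches and differences between arrays was not tested. The GAS is in capitals, with 8 bases on each side.
Irf1: agcctgatTTCCCCGAAatgatgag
Irf9: cacgtgatTTCTAGGAActgcacct
Ifi47, farther from the start: cctttggcTTCAGAGAActcattcc
Ifi47, nearer to the start: aaatcattTTCCTGGAAatgtttat

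The Irf1 match began 142 bases before the gene's start (window chr10:38417785-38417809, GRCr8, + strand) and the Irf9 match 99 bases before it (window chr15:33065729-33065753, + strand). The Ifi47 matches began 212 and 96 bases before the start. The whole Ifi47 promoter window, chr10:33798494-33798793 on the + strand of GRCr8, is given with both GAS matches in capitals.
Ifi47 promoter: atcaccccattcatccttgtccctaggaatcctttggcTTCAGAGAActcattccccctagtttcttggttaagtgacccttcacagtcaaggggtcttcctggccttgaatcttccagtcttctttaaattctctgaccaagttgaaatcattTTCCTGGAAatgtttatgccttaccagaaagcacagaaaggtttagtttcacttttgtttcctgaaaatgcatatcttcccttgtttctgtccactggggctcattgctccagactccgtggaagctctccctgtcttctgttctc

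Among the sensors, Dhx58 and Eif2ak2 were detected on all 4 arrays. Dhx58 encodes LGP2, a helicase that modulates RNA sensing, and had levels of 1.96, 2.06, 2.46 and 2.54 on replicates 1 to 4. Eif2ak2 encodes PKR, a kinase that double-stranded RNA activates and that stops translation, and its levels were -0.29, -0.10, -0.76 and -0.70. Dhx58 was thus lower on replicates 1 and 2 than on the other arrays, and Eif2ak2 was higher there. The spread of both was similar, with an SD of 0.29 for Dhx58 and 0.32 for Eif2ak2 (n = 4). A further probe of Eif2ak2 was detected on replicates 1 and 2 only.

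Ifih1, which encodes the RNA sensor MDA5, was detected on replicates 1 and 2, at -1.58 and -1.51, and read -1.82 and -2.91 on replicates 3 and 4, where it was not well above background. Zbp1, a sensor of Z-form nucleic acids, was detected on no array.

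Of the transcription factors, 5 of 6 were detected on all 4 arrays. Irf3, the factor that sensor signalling activates directly, had levels of 4.63, 4.57, 5.13 and 5.49, with an SD of 0.44 (n = 4). Irf7, which amplifies type I interferon production, had levels of 2.61, 2.58, 2.72 and 2.95 (SD 0.17). Irf1, a factor induced by interferon gamma, had levels of 3.22, 3.24, 3.41 and 3.68 (SD 0.21). All of these were highest on replicate 4.

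Irf9 and Stat2, which act in the type I complex, were both detected. Irf9, its DNA-binding subunit, had levels of 2.92, 2.92, 3.04 and 3.34 (SD 0.20, n = 4). Stat2 had levels of 4.63, 4.54, 5.06 and 5.24 (SD 0.34). As with the other detected factors, the highest value was that of replicate 4, and those of replicates 1 and 2 lay within 0.1 of each other. The further probe of Irf3, at 1.78, 1.76, 2.09 and 2.30, was highest on replicate 4 as well, and the further probe of Irf9, at -0.11, 0.18, 0.36 and 0.34, was lowest on replicate 1.

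All 5 detected factors were highest on replicate 4, and 46.4% of all detected genes were highest there. Relative to each gene's own mean over the arrays, the median factor stood at -0.16, -0.15, 0.02 and 0.29 on replicates 1 to 4, against -0.07, -0.07, 0.06 and 0.10 for all detected genes. Which array was highest depended on the scaling: with spike-in scaling all 5 were highest on replicate 2, and with normexp background correction all 5 on replicate 3. Irf8, a factor of myeloid cells, was detected on no array. Its only spot lies in an area of replicate 3 where signals were low, described with Mx2.

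In the ISG15 system, Isg15 and Usp18 were detected on all 4 arrays. Isg15, a ubiquitin-like protein that is attached to other proteins, had levels of 4.80, 4.74, 4.55 and 4.84 (SD 0.13, n = 4). Usp18, the protease that removes ISG15 and also restrains the type I receptor, had levels of 2.31, 2.27, 1.74 and 1.68 (SD 0.34). Isg15 was lowest on replicate 3, and Usp18 was lower on replicates 3 and 4 than on the other arrays. Socs1, an inhibitor of the JAK kinases, was detected on replicate 1 only, at -2.14, and its signals on the other arrays were not well above background.

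Of the oligoadenylate synthetases, whose product activates RNase L, and their relatives, 4 of 6 were detected on all 4 arrays. Oas1a had levels of 2.89, 2.75, 2.90 and 2.93, with an SD of 0.08 (n = 4). Oas1b had levels of 6.10, 6.13, 6.36 and 6.51 (SD 0.19). The array with the highest value was replicate 4 for both. A further probe of Oas1a, detected on all 4 arrays, read 2.40, 2.37, 2.29 and 2.58 (SD 0.12).

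The oligoadenylate synthetase-like members differed in spread. Oasl had levels of 2.53, 2.42, 2.91 and 3.06 (SD 0.31, n = 4), whereas Oasl2 stayed at 2.49, 2.54, 2.44 and 2.60 (SD 0.07). All 4 detected genes of the family were highest on replicate 4; with quantile normalization 2 were, and with spike-in scaling or normexp correction 0 were. Oas2 was detected on replicate 1 only, at -2.07. Oas3 was detected on none, with readings from -3.49 to -2.61. Oas1a and Oas1b, like the members of the Mx, Gbp and Ifit families, are close paralogues, and whether a probe also binds a relative's cRNA was not tested.

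**Figure D1:**
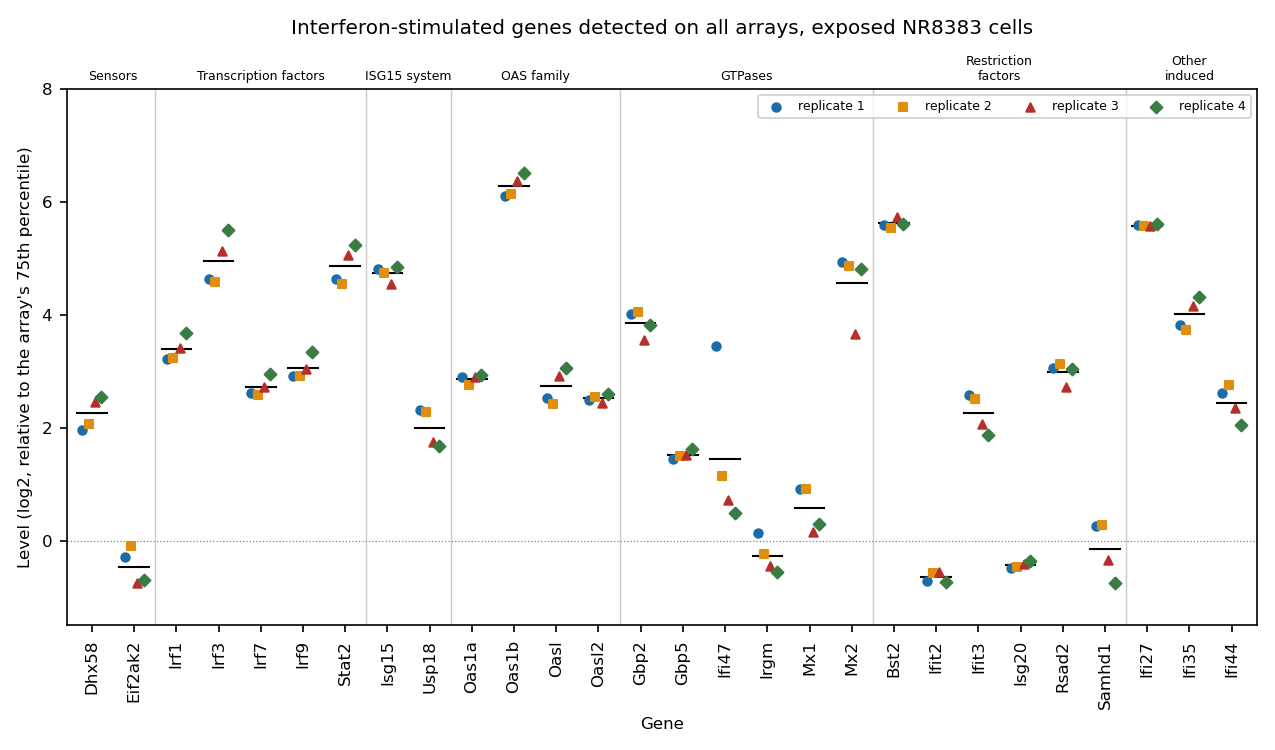
Level of each of the 28 members detected on all 4 arrays (vertical axis, log2 over the 75th percentile of its array), grouped by role; each symbol is 1 replicate and the bar is the mean. The symbols of a gene mostly lie close together, while Ifi47 on replicate 1, at 3.45, and Mx2 on replicate 3, at 3.66, stand apart from the rest of their genes.

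Of the 7 measured antiviral GTPases, 6 were detected on all 4 arrays. Their median SD was 0.35, against 0.25 for all detected genes. It was 0.49, against 0.23, with normexp correction, 0.88, against 0.53, with spike-in scaling, and 0.36, against 0.24, with quantile normalization. With replicate 3 corrected for its dim area it was 0.26, against 0.25. Mx1, a dynamin-like GTPase that in rat acts in the nucleus, had levels of 0.91, 0.92, 0.16 and 0.29 (SD 0.40, n = 4). Mx2, its cytoplasmic relative in rat, had levels of 4.94, 4.86, 3.66 and 4.80 (SD 0.61). For Mx1, replicates 1 and 2 were above the other arrays, while for Mx2 only replicate 3 stood apart with this scaling. With normexp correction Mx2 read 4.52, 4.43, 2.63 and 3.49, so replicate 4 was below replicates 1 and 2 as well.

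The immunity-related GTPases, which act on membranes around intracellular pathogens, were represented among the members by Irgm and Ifi47. Irgm had levels of 0.13, -0.23, -0.45 and -0.55 (SD 0.30, n = 4). Ifi47 had levels of 3.45, 1.14, 0.71 and 0.48, and its SD of 1.36 was the highest among the 28 members. Both members were highest on replicate 1, but Irgm by less than 0.5 and Ifi47 by 2.30. Igtp, a gene of this family on the wider pathway list given below, went the other way. It was detected on all 4 arrays, at 6.79, 6.57, 7.32 and 7.26, and was highest on replicate 3.

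The guanylate-binding proteins, large GTPases that coat pathogens and their vacuoles, included 2 detected members. Gbp2 had levels of 4.01, 4.04, 3.55 and 3.81 (SD 0.23, n = 4). Gbp5 had levels of 1.45, 1.49, 1.52 and 1.62 (SD 0.07). Gbp2 was lowest on replicate 3, and Gbp5 was among the 7 members with an SD of at most 0.1. With normexp correction the SD of Gbp2 was 0.58. Gbp4 was detected on no array through any of its probes.

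Ifi47 stood out on replicate 1 among the genes detected on all 4 arrays. Its level there exceeded the median of the other 3 arrays by 2.73 on the log2 scale, rank 1 of 7366 genes for upward deviation on that array, and the next gene, Naa20, exceeded it by 1.85. Counting every array and both directions, 21 genes deviated by more than Ifi47 did, and 0 of them were members. Naa20 was, however, also high on replicate 2, at 2.60, and low on replicate 3, at -1.06. Ifi47 stood above the highest of its other arrays by 2.30, and the next-largest such gap of any gene on replicate 1 was 0.81. Gaps on the other arrays were not computed.

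In processed signal, Ifi47 read 1394 on replicate 1 and 289, 161 and 68.5 on replicates 2 to 4. After scaling, the value of replicate 1 was 6.35-fold the mean of the other arrays. The median pixel signal of the spot was 1288, 325, 256 and 132, over a local background of 37, 39, 44 and 40, and the spot was marked as an outlier on no array. The 50 nearest detected spots of replicate 1 deviated by a median of -0.05, so the neighbourhood of this spot was not raised. Ifi47 was measured by 1 probe with 1 spot on each array, so the reading has no second probe beside it. It was the 1 member of 28 that exceeded the median of its other arrays by more than 1 log2 unit on replicate 1, as 0.38% of all detected genes did. As the plot of levels relative to each gene's own mean shows, 14 of the 28 members were above their own mean on replicate 1, against 38.7% of all detected genes.

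**Figure D2:**
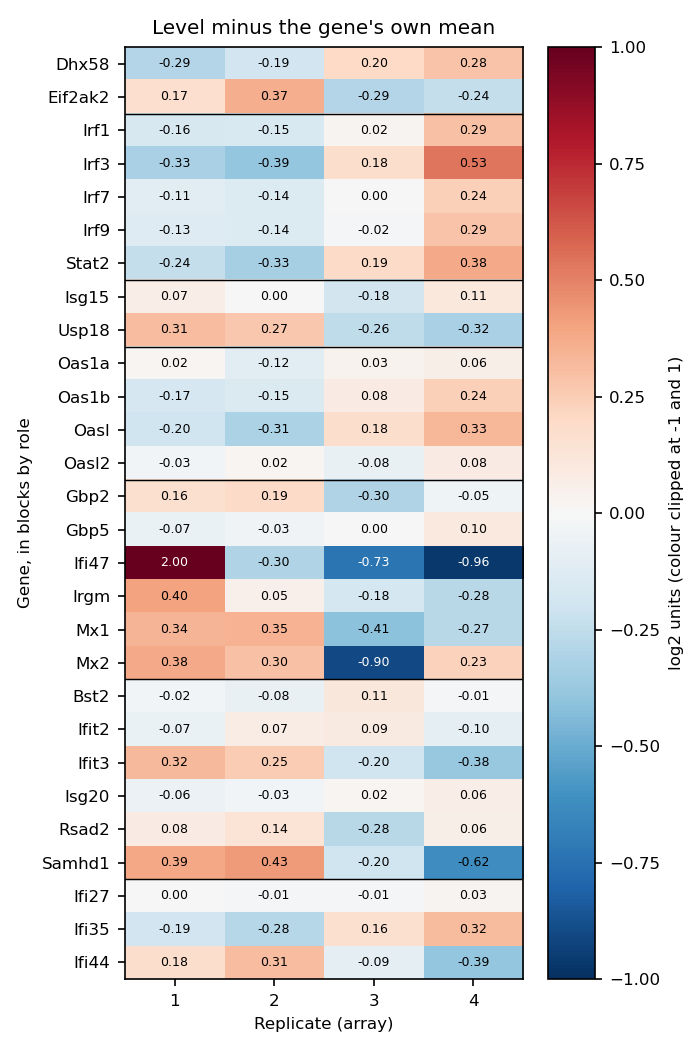
Level of each detected member on each array minus that gene's own mean over the 4 arrays (log2), with the genes grouped by role. Ifi47 lies far above its mean on replicate 1, Mx2 far below on replicate 3, and the detected transcription factors are all above their means on replicate 4 with this scaling, though all 5 are highest on replicate 2 with spike-in scaling.

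Mx2 on replicate 3 deviated by -1.20 on the log2 scale from the median of the other arrays. It was the 1 member of 28 that fell more than 1 log2 unit below that median on replicate 3, as 1.76% of all detected genes did. The reading was 3.66, and its spot sat in an area of dim spots. In that area, spanning rows 151 to 240 and columns 65 to 99 of a grid of 384 rows and 164 columns, the 50 nearest detected spots read a median of more than 0.5 below the other arrays. It held 2023 of the 58717 spots, 3.45%, and the probes of 2 members, Mx2 and Irf8, against 3% of all measured genes. Around Mx2 the local median deviation was -0.90. When the local medians were subtracted over all of replicate 3 and the array was scaled again, Mx2 read 4.58 there. Its SD fell to 0.15, against 0.61 as measured. Around Irf8 it was -1.20, and Irf8 was not well above background on the 3 other arrays either.

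**Figure D3:**
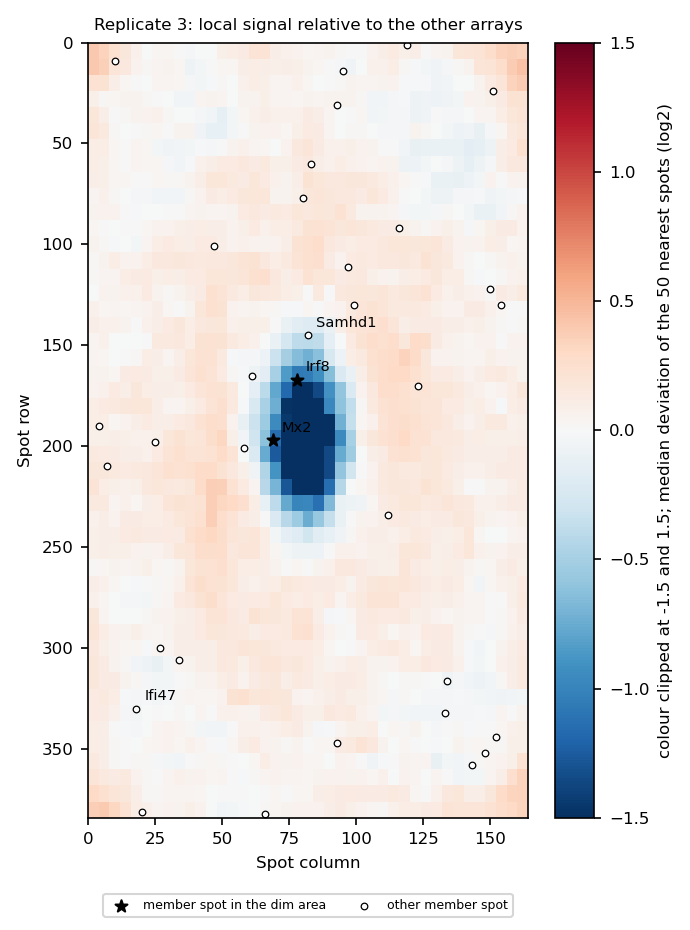
Position by spot row and column of the 34 measured members that have a single spot, over the replicate 3 array, coloured by the median log2 deviation of the 50 nearest detected spots from the other arrays (colour clipped at -1.5 and 1.5). Stars mark Mx2 and Irf8 inside the dim area, while Samhd1 lies at its rim and Ifi47 far from it.

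Of the 8 restriction factors, 6 were detected on all 4 arrays. Among the IFIT proteins, which bind viral RNA, Ifit2 had levels of -0.71, -0.57, -0.55 and -0.74 (SD 0.09, n = 4). Ifit3 had levels of 2.58, 2.51, 2.06 and 1.87 (SD 0.34). Ifit2 hardly varied, and Ifit3 was higher on replicates 1 and 2 than on the other arrays. Ifit1 was detected on no array, with readings from -4.39 to -2.90.

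Isg20 and Rsad2 act on viral RNA or its synthesis. Isg20, an exonuclease, had levels of -0.49, -0.46, -0.41 and -0.37, and its SD of 0.05 was among the lowest of the members (n = 4). Rsad2, viperin, had levels of 3.06, 3.12, 2.71 and 3.04 (SD 0.19) and was lowest on replicate 3. A further probe of Rsad2 was well above background on no array, so the probes of this gene disagree on whether it is detected.

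Bst2, tetherin, holds budding virions at the cell surface. It had levels of 5.59, 5.54, 5.73 and 5.60 (SD 0.08, n = 4), with no array apart from the rest with this scaling. With normexp correction Bst2 read 5.06, 5.05, 4.82 and 4.38 (SD 0.32), lowest on replicate 4, and with spike-in scaling its SD was 0.57. Ifitm3, which blocks fusion of virus and endosome membranes, was detected on no array, with readings from -4.46 to -2.60.

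Samhd1, an enzyme that breaks down deoxynucleotides, had levels of 0.25, 0.28, -0.34 and -0.76 (SD 0.50, n = 4). It was lowest on replicate 4, where it was the 1 member of 28 to lie more than 1 log2 unit below the median of its other arrays, as 1.25% of all detected genes did, and replicate 3 was also below replicates 1 and 2. Its spot lies at the rim of the dim area of replicate 3, with a local median deviation of -0.38. After the same correction and scaling as for Mx2, its level there was 0.06 and its SD 0.49.

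The remaining members are induced genes of other kinds. Ifi27, a small membrane protein, had levels of 5.58, 5.57, 5.56 and 5.60, with an SD of 0.02 (n = 4). That SD was the lowest among the 28 members with this scaling, but it was 0.20 with normexp correction, 0.58 with spike-in scaling and 0.08 with quantile normalization. Ifi35, a leucine zipper protein, had levels of 3.81, 3.72, 4.16 and 4.32 (SD 0.28). Ifi44 had levels of 2.62, 2.75, 2.35 and 2.05 (SD 0.31). Ifi35 was higher on replicates 3 and 4 and Ifi44 was lower there, while Ifi27 moved by less than 0.1 with this scaling. A further probe of Ifi44 read 1.85, 1.85, 1.26 and 1.09 and was lower on replicates 3 and 4 as well.

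**Figure D4:**
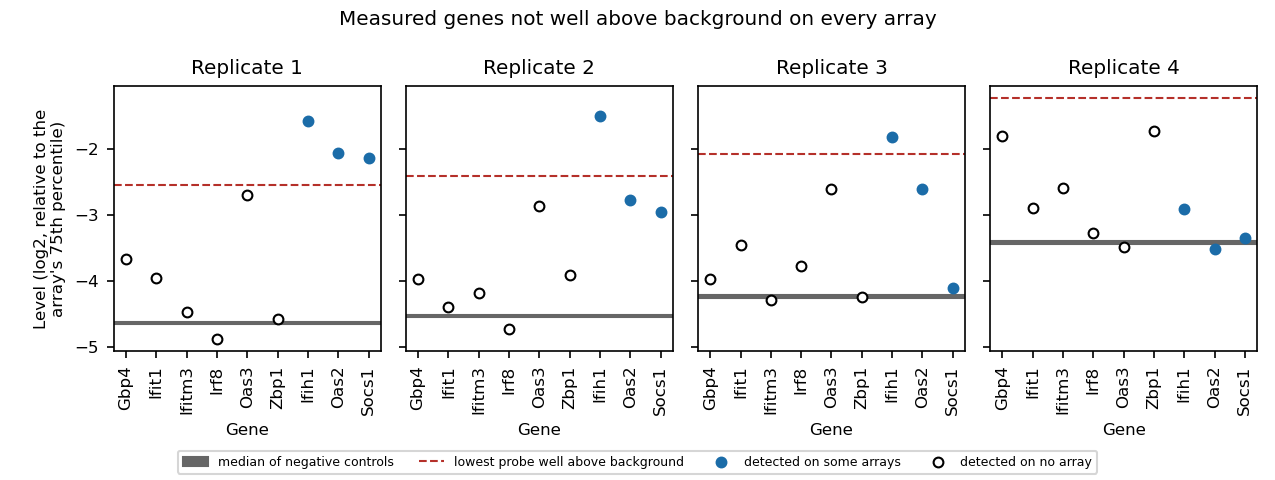
Readings on each array (log2 over the 75th percentile of its array) of the 9 measured members not detected on all 4 arrays, with filled symbols for genes detected on some arrays and open ones for genes detected on none; the dashed line is the lowest level of a probe well above background and the grey line the median of the negative controls. Ifih1 is detected on replicates 1 and 2, Socs1 and Oas2 on replicate 1, and the other 6 on no array.

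Of the 9 members not detected on all 4 arrays, Ifih1, Socs1 and Oas2 were detected on some. There they lie at or above the dimmest detected probe by definition. Ifih1 on replicate 3, at -1.82, was above the dimmest detected probe of that array without being detected. The lowest level that any detected probe reached was -2.56, -2.41, -2.09 and -1.24 on replicates 1 to 4, and the negative control probes had a median of -4.63, -4.53, -4.24 and -3.42. Replicate 4, the dimmest array, therefore had the highest background on this scale. Zbp1, at -4.57, -3.91, -4.24 and -1.73, and Gbp4, at -3.66, -3.97, -3.97 and -1.81, read highest there without being well above background. A level this near to background is a bound and not a measure of absence. On replicate 3, 3 of the 308 negative control spots were themselves marked well above background, against 0 on each other array. The highest negative control of replicate 3 read 0.21, above some detected members there, such as Mx1 at 0.16 and Isg20 at -0.41.

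As a set, the members varied between the arrays about as much as other genes. The median SD over the 28 detected members was 0.26, against 0.25 for all 7366 detected genes. An SD above 0.5 was found for 3 members, Ifi47, Mx2 and Samhd1, out of 28, and 11.6% of all detected genes had one. With normexp correction the members above 0.5 were Usp18, Ifi44, Gbp2, Mx2 and Ifi47, against 7.01% of all detected genes, and with replicate 3 corrected for its dim area only Ifi47 was, against 9.86%. With the percentile scaling, the same 3 members lay more than 1 log2 unit from the median of their other arrays on some array, as did 8.89% of all detected genes.

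At the other end, 7 of the 28 members had an SD of at most 0.1, and 13.2% of all detected genes did. Their symbols are Ifi27, Isg20, Oasl2, Gbp5, Oas1a, Bst2 and Ifit2. Membership of this group depends on the processing: with normexp correction 3 members had such an SD, Irf7, Isg20 and Irgm, against 8.06% of all detected genes, and with spike-in scaling 0 had, against 0.502%.

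**Figure D5:**
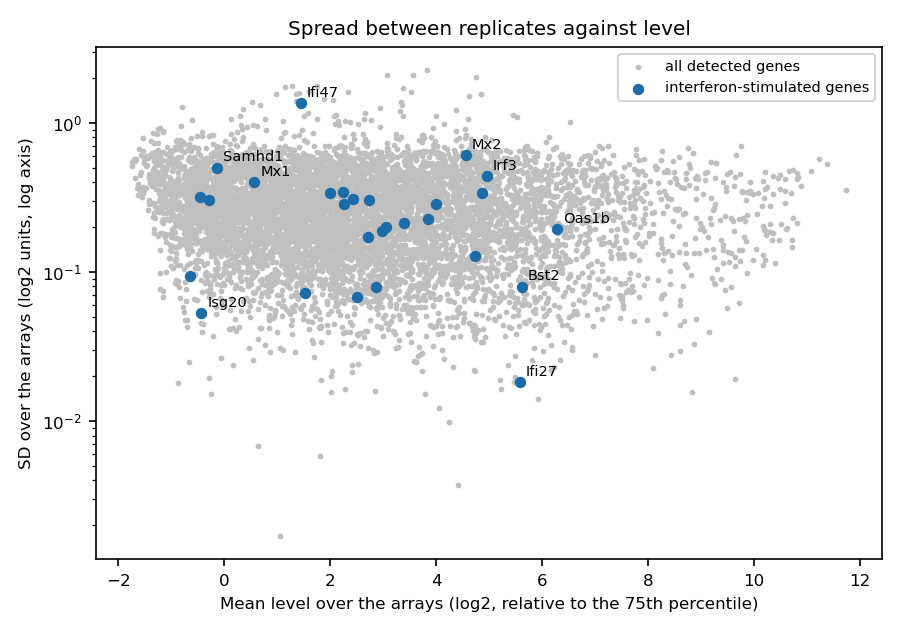
SD over the 4 arrays (log2) against mean level for the detected members, over all detected genes in grey. Ifi47, at an SD of 1.36, lies highest of the members, followed by Mx2 at 0.61, and Ifi27 lies lowest, at 0.02, with this scaling.

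The median member stood at -0.01, -0.02, -0.02 and 0.06 relative to its own mean on replicates 1 to 4, against -0.07, -0.07, 0.06 and 0.10 for all detected genes. Members were highest on replicate 4 most often, 15 of 28, against 46.4% of all detected genes, and 7 were lowest there, against 29.6%. On replicate 3, 2 members were highest, against 16.5% of all detected genes, and 8 were lowest, against 13.1%. On replicate 1, 5 were highest, against 10.6%, and 5 were lowest, against 22%. On replicate 2, 6 were highest, against 26.4%, and 8 were lowest, against 35.3%. Which array holds a gene's highest value depends on the scaling, as for the transcription factors. The GTPases had median shifts of 0.36, 0.12, -0.36 and -0.16 on replicates 1 to 4, while the restriction factors had shifts of 0.03, 0.10, -0.09 and -0.05. The signs of both were the same with quantile normalization and normexp correction. The GTPases on replicate 2 stood at -0.01 without replicate 3, and the restriction factors on replicate 1 at -0.01 with the mean over all probes. With spike-in scaling the medians moved to 0.36, 0.50, -0.10 and -0.74 for the members and to 0.31, 0.45, -0.03 and -0.71 for all detected genes, so the members moved with the whole array.

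A wider list of the interferon pathway, of which 68 genes were measured, gives the surroundings of these members. Of the 68, 49 were detected on all 4 arrays, 72.1%, against 44.4% of all measured genes. This list too was chosen with earlier results of these data known, and the difference was not tested. Their median SD was 0.20, against 0.25 for all detected genes. None of the 6 measured ligands was detected on all 4 arrays. Ifnb1 and Ifna4 were detected on replicate 1 only, at -2.30 and -1.90, and Ifna2, Ifna5, Ifng and Ifnk on no array. Replicate 1 had the highest share of all genes detected, 52.3%. The receptors and kinases were detected on all 4 arrays for 7 of 8 genes, Ifnar1, Ifngr1, Ifngr2 and Il10rb among them.

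Of the further transcription factors, 5 of 6 were detected on all 4 arrays, among them Irf2, Irf4 and Irf5. Of the further sensors and adaptors 4 of 8 were detected on all 4 arrays, namely Ikbke, Mavs, Myd88 and Sting1. Of the further induced genes 28 of 34 were, B2m, Ccl5, Cd274 and Cmpk2 among them, and of the negative regulators 5 of 6 were, including Ptpn11, Ptpn2, Ptpn6 and Socs3.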

How the data were processed

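Per the file headers and the submitters' processing notes, the deposited files are scanner output of Agilent Feature Extraction 11.0.1.1, and their values are intensity per spot, background-subtracted by that software and not scaled between arrays. The members and lists were chosen with earlier results of these data known.

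Of 45598 sample probes, 21109 were named by matching accessions to RefSeq, which gave 16579 genes. Spots marked as outliers (at most 1.85% of spots on an array) were left out, spots of a probe averaged, and log2 of the processed signal was taken minus the array's 75th percentile. A gene took its brightest probe, which 7 members needed. Detection required the well-above-background flag on over 50% of a probe's spots. The SD is over 4 arrays, and the number of arrays limits the precision. RNA integrity was stated as above 7.5.

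All 39 members were named, and from the wider list every measured ligand and up to 4 detected genes per other role in alphabetical order. Naa20, Cxcl9 and Igtp were added after their values were seen. A gene of that list is not reported here. Alternatives were normexp correction (limma 3.58.1, R 4.3.3, offset 50), spike-in scaling, quantile normalization, other probe and detection rules, correction of the dim area, and leaving out each array. Normexp used the spot median signal in place of the planned mean signal, a choice made after seeing the data. Calculations used Python 3.11.15 with numpy 2.4.6 and pandas 2.3.3 and were tested on simulated data.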

Additional observations from a re-analysis of the deposited data

Results flagged for a closer look

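Mx2 on replicate 3 read 3.66, far from the other 3 arrays for the range of its values: the gap to the nearest of them was 0.888 of the whole range, above Dixon's critical value for 4 samples. Chance alone marks about 1 in 20 groups in this way, and 1 of the 28 detected members was marked. The share of all detected genes marked on these arrays is not given here, so the count is not a result about the members. Its spot lies in the dim area of that array.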

How the results depend on the processing

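Only 1 group was analysed, so every result is a description, and depth limits it through signal over background, which was lowest on replicate 4. No paired analysis was possible because there is 1 group. With normexp correction 5 detected members had an SD above 0.5, against 3, and 7.01% of all detected genes did, against 11.6%. The members' median shift on replicate 4 was -0.20, against 0.06, and that of all detected genes was -0.13, against 0.10. With scaling to the spike-in probes the members' median SD was 0.58, against 0.53 for all detected genes. An SD above 0.5 was found for 19 members, against 54% of all detected genes, and 19 lay more than 1 log2 unit from their other arrays. The members' median shifts were 0.36, 0.50 and -0.74 on replicates 1, 2 and 4, against 0.31, 0.45 and -0.71 for all detected genes. With the positive-and-significant flag both counts were 5, over 30 detected members, and 18.7% of all detected genes had an SD above 0.5. With replicate 3 corrected by its local median, 1 member had an SD above 0.5, against 9.86% of all detected genes. Leaving out each array in turn, the count of members more than 1 log2 unit from their other arrays ranged from 1 to 2, and it was 1 without replicate 1. The shares of all detected genes beyond 1 log2 unit with these settings are not given here, so those counts are not a trait of the members. The cause of these changes was not tested. Ifi47 stayed highest on replicate 1 with normexp (2.68, against 0.73, 0.62 and 0.24), spike-in scaling and quantile normalization. Naming probes by a gene name column was not run, since the files used here have no such column.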

Other observations

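Cxcl9, a chemokine gene induced by interferon gamma and a gene of the wider pathway list, was picked out after its values were seen. It was detected on replicate 1 only, at -2.30, and read -4.14, -4.36 and -3.54 on the other arrays, where it was not well above background. The value of replicate 1 was near the lowest level of any detected probe there, -2.56. Replicate 1 also had the highest share of all genes detected, 52.3%. Cxcl9 was not typical of the 34 measured further induced genes, of which 28 were detected on all 4 arrays, 3 on some and 3 on none.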
